A study of Fragaria vesca with 12 samples.

Results

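The genes described here are those of ascorbate (vitamin C) synthesis, use and recycling in the fruit of Fragaria vesca, a diploid strawberry. They were chosen by words in the gene descriptions of the deposited expression table (ascorbate, GDP-mannose, GDP-L-galactose, L-galactose, L-galactono, galacturonate reductase, gulonolactone, gluconolactone, inositol oxygenase, mannose-1-phosphate, mannose-6-phosphate and glutathione reductase), leaving out nucleobase-ascorbate transporters. The words matched 50 of 21927 genes. The rule reads descriptions and no measured value.

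Fruit of the Fvalkbh10b mutant was compared with wild-type (WT) fruit, both taken 27 days post anthesis, with 3 biological replicates of each genotype. From every replicate there was an input library of fragmented mRNA and a library of the fragments precipitated by an antibody against N6-methyladenosine (m6A), 12 libraries in 4 groups. ALKBH10B is known from Arabidopsis as an enzyme that removes m6A from RNA, so the comparison addresses how a mutation of the strawberry gene bears on RNA levels and RNA methylation in fruit. The sources used here do not give the nature of the mutant allele or the number of mutant lines.

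Plants make ascorbate mainly from mannose: GDP-mannose is turned into GDP-L-galactose, then into L-galactose and L-galactono-1,4-lactone, whose oxidation in mitochondria yields ascorbate. Side routes start from D-galacturonate, a pectin sugar, or from myo-inositol. Ascorbate peroxidases and ascorbate oxidases consume ascorbate, monodehydroascorbate reductase and dehydroascorbate reductase regenerate it, and glutathione reductase refills the glutathione that the second of these enzymes uses. In fruit the pool of ascorbate is a trait of both nutrition and redox balance.

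Input RNA levels are given as FPKM, fragment numbers scaled to transcript length and to the mapped fragments of the library, a scale on which genes of different length can be compared. The change of each gene was the difference of mean log2(FPKM + 1), Fvalkbh10b minus WT, tested with limma (n = 3 libraries of each genotype) over the 15571 genes averaging 1 FPKM or more, and a gene was called at an adjusted p under 0.05. Errors beside log2 changes are SEs, and the scale understates the change of low genes. The summed FPKM of a library lay between 467174 and 522590, and the read depth behind it is unknown. Replicates had a Pearson r of 0.991 to 0.993 across genes, against 0.895 to 0.897 between genotypes. The table was broadly shifted: 48.3% of all tested genes were called higher in Fvalkbh10b and 19.1% lower, with a median log2 change of 0.25. No gene description names ALKBH10B. The single gene annotated with RNA N6-methyladenosine dioxygenase activity, FvH4_2g24110, had 3.75, 3.84 and 5.34 FPKM in Fvalkbh10b against 30.3, 28.5 and 31.0 FPKM in WT (log2 change -2.55 ± 0.11, limma adjusted p = 3.01e-08), but the sources used here do not say whether it is the mutated gene.

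Of the 50 ascorbate genes, 38 passed the filter on low values, 24 were called higher in Fvalkbh10b, 10 were called lower and 4 were not called. The higher ones were 63.2% of the tested members, beside 48.3% of all tested genes, and the lower ones 26.3%, beside 19.1%. In either direction 34 were called, or 89.5%, beside 67.5%. The median log2 change of the 38 was 0.49, beside 0.25 for all tested genes. A change of at least 2-fold in addition was found for 13 higher members, beside 14% of all tested genes, and for 5 lower members, beside 6.49%. With libraries rescaled to one median, which takes out the shift of the whole table, the split was 17 higher and 12 lower of 38 (44.7% and 31.6%), beside 30.8% higher and 32.2% lower of all tested genes. Of the 38, 4 reached a mean of 1 FPKM in Fvalkbh10b but not in WT, and 1 did so in WT but not in Fvalkbh10b. All Fvalkbh10b libraries lay above all WT libraries in 29 of the 50 members, beside 43.6% of all genes, and below them in 12, beside 16.7%. The 12 members that did not pass the filter stayed at or below 1.52 FPKM in every library. Significance is marked for 22 of the 50 members in the authors' deposited table, beside 23.5% of all genes.

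**Figure D1:**
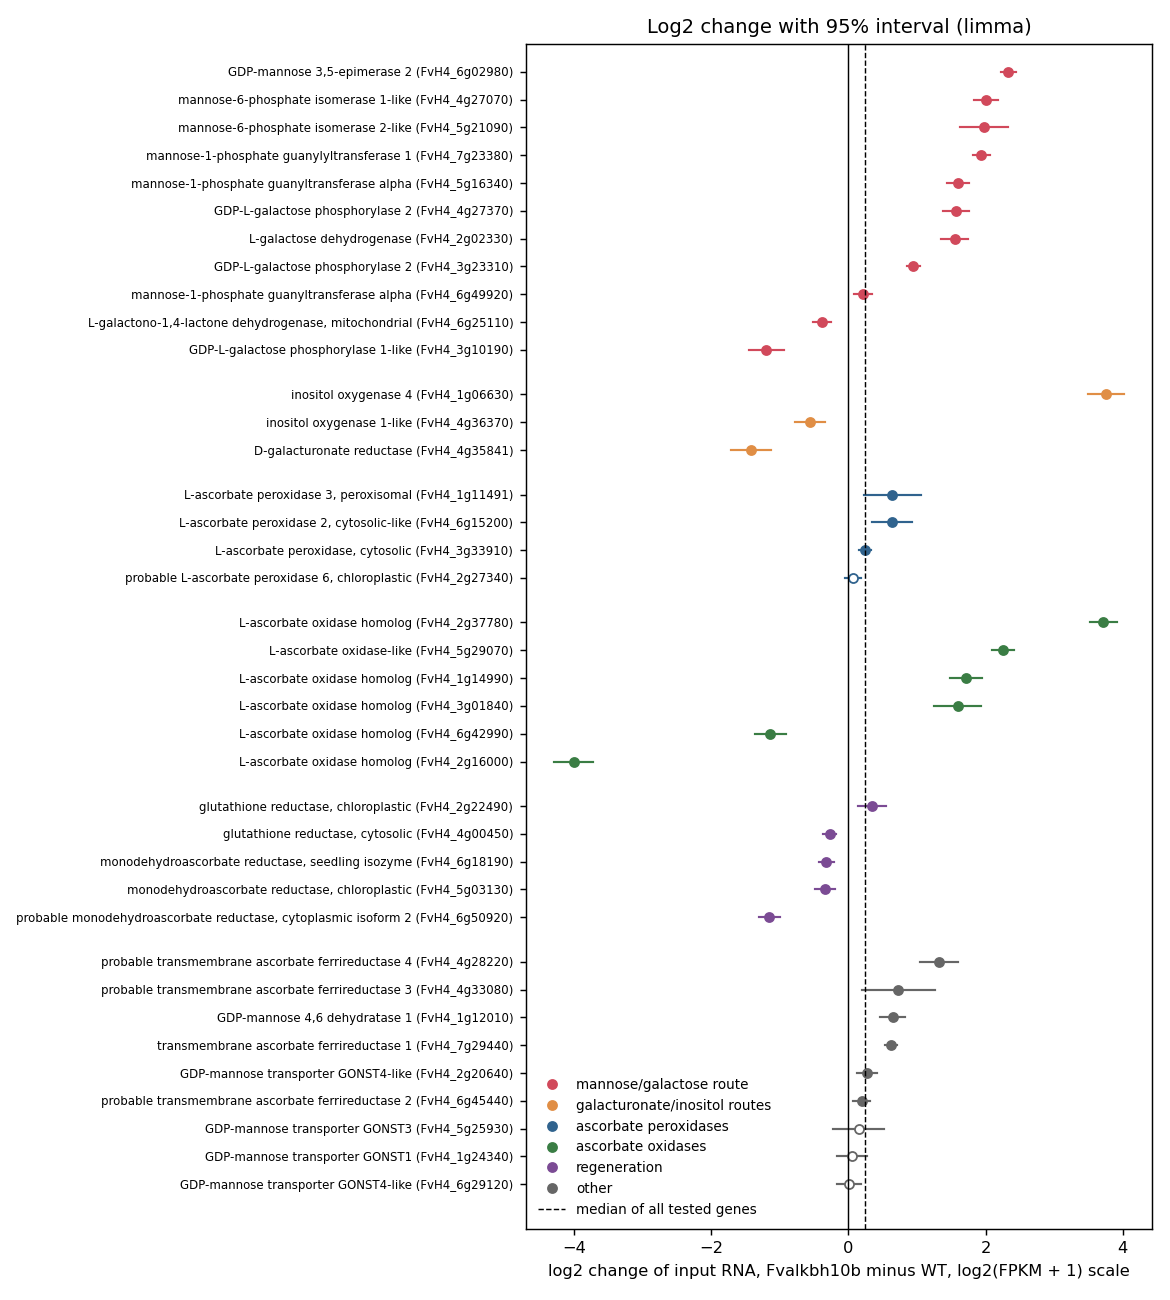
Log2 change of input RNA (x axis, Fvalkbh10b minus WT on the log2(FPKM + 1) scale) of the 38 tested ascorbate genes with 95% intervals, grouped by role. Filled points were called and open points were not, and the dashed line is the median of all tested genes at 0.25. The mannose and galactose route lies mostly to the right, between -1.19 and 2.33, and 4 of the 5 regeneration genes lie left of 0.

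The route from mannose through galactose was mostly higher in Fvalkbh10b. Of its 12 genes 11 were tested, and 9 were called higher in Fvalkbh10b and 2 lower, with 7 of the higher ones past 2-fold. The shares were 81.8% higher and 18.2% lower, beside 48.3% and 19.1% of all tested genes. Past 2-fold, 14% of all tested genes were higher. The median log2 change of the 11 was 1.57. Summed over the 12 genes, the route reached 634, 623 and 609 FPKM in the Fvalkbh10b libraries against 226, 233 and 233 FPKM in the WT libraries.

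The first steps supply GDP-mannose. Mannose-6-phosphate isomerase 1-like (FvH4_4g27070, chromosome 4, 28215650 to 28218569, plus strand), which converts fructose 6-phosphate into mannose 6-phosphate, had 32.8, 34.7 and 33.7 FPKM in Fvalkbh10b against 8.04, 6.91 and 8.10 FPKM in WT. It rose by 2.00 ± 0.08 on the log2 scale (limma adjusted p = 8.98e-09), with all Fvalkbh10b libraries far above all WT libraries. A less abundant isomerase, 2-like (FvH4_5g21090), had 4.11, 5.40 and 4.75 FPKM in Fvalkbh10b against 0.71, 0.37 and 0.31 FPKM in WT with a log2 change of 1.98 ± 0.15 (adjusted p = 1.99e-06). It passed the filter on low values only through its level in Fvalkbh10b. Phosphomannomutase (FvH4_7g13630), the next enzyme of the route, is outside the word rule. It had 29.1, 36.9 and 39.5 FPKM in Fvalkbh10b against 29.9, 34.4 and 33.1 FPKM in WT, with overlapping libraries. Its log2 change of 0.10 had a 95% interval of -0.13 to 0.34 (adjusted p = 0.403) and was not called. It was called higher without Fvalkbh10b replicate 1 (0.23, adjusted p = 0.0258) and was at -0.17 with libraries rescaled to one median (adjusted p = 0.154).

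Mannose-1-phosphate guanylyltransferase joins mannose 1-phosphate to GTP and so makes GDP-mannose, which cell-wall polymers and protein glycosylation also draw on. The gene described as mannose-1-phosphate guanylyltransferase 1 (FvH4_7g23380, chromosome 7, 18260281 to 18263180, plus strand) had 86.0, 82.3 and 78.7 FPKM in Fvalkbh10b against 19.7, 21.2 and 21.5 FPKM in WT, a rise of 1.94 ± 0.06 (limma adjusted p = 1.3e-09). Of the pair described as guanyltransferase alpha, FvH4_5g16340 had 39.7, 39.7 and 40.8 FPKM in Fvalkbh10b against 11.97, 11.8 and 14.0 FPKM in WT (log2 change 1.60 ± 0.07, adjusted p = 3.82e-08). The other, FvH4_6g49920, had 24.8, 26.5 and 26.2 FPKM in Fvalkbh10b against 21.4, 22.1 and 23.0 FPKM in WT. Its libraries did not overlap between genotypes either, but the change was 0.21 ± 0.06 (adjusted p = 0.0101), close to the median of all genes, and was -0.060 with libraries rescaled to one median (adjusted p = 0.408). FvH4_5g16340 overlaps a gene on the opposite strand by 24 bases.

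GDP-mannose 3,5-epimerase turns GDP-mannose into GDP-L-galactose, the first precursor on the way to L-galactose. Epimerase 2 (FvH4_6g02980, chromosome 6, 1661813 to 1665487, plus strand) was the most abundant gene of the route in Fvalkbh10b, with 233, 229 and 215 FPKM against 41.9, 45.1 and 44.9 FPKM in WT. This was a log2 rise of 2.33 ± 0.05 (limma adjusted p = 1.14e-10), a 5.13-fold ratio of means. By mean FPKM it stood at rank 209 of all genes in Fvalkbh10b and at rank 1685 in WT.

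GDP-L-galactose phosphorylase releases L-galactose 1-phosphate and is known from Arabidopsis as the main control point of the route. Of the pair described as phosphorylase 2, FvH4_3g23310 (chromosome 3, 16385273 to 16388672, plus strand) had 124, 121 and 125 FPKM in Fvalkbh10b against 64.0, 64.7 and 62.0 FPKM in WT. FvH4_4g27370 (chromosome 4, 28396835 to 28399972, minus strand) had 35.5, 33.7 and 34.8 FPKM in Fvalkbh10b against 10.7, 12.5 and 9.86 FPKM in WT. FvH4_3g23310 rose by 0.95 ± 0.04 (limma adjusted p = 2.03e-08) and FvH4_4g27370 by 1.57 ± 0.08 (adjusted p = 1.16e-07), with no overlap between genotypes. Another gene, phosphorylase 1-like (FvH4_3g10190), went the other way, with 3.24, 2.76 and 2.50 FPKM in Fvalkbh10b against 8.17, 7.83 and 7.26 FPKM in WT (log2 change -1.19 ± 0.11, adjusted p = 8.3e-06). It was the least abundant of the 3 tested phosphorylase genes in both genotypes. The other member described as a phosphorylase, FvH4_7g13380, did not exceed 0.09 FPKM.

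L-galactose dehydrogenase oxidises L-galactose to its lactone. Its gene (FvH4_2g02330, chromosome 2, 1915545 to 1919398, minus strand) had 24.3, 23.5 and 22.9 FPKM in Fvalkbh10b against 7.07, 6.75 and 8.47 FPKM in WT and rose by 1.55 ± 0.09 (limma adjusted p = 2.03e-07). L-galactono-1,4-lactone dehydrogenase, the mitochondrial enzyme, carries out the final step. Its gene (FvH4_6g25110, chromosome 6, 19053389 to 19059362, minus strand) had 26.4, 24.0 and 25.4 FPKM in Fvalkbh10b against 32.6, 34.0 and 33.1 FPKM in WT, and fell by 0.38 on the log2 scale (SE 0.06, adjusted p = 2.15e-04). All Fvalkbh10b libraries lay below all WT libraries. This gene overlaps one on the opposite strand, FvH4_6g25100, by 161 bases, and the sources used here do not say whether counting used strand.

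**Figure D2:**
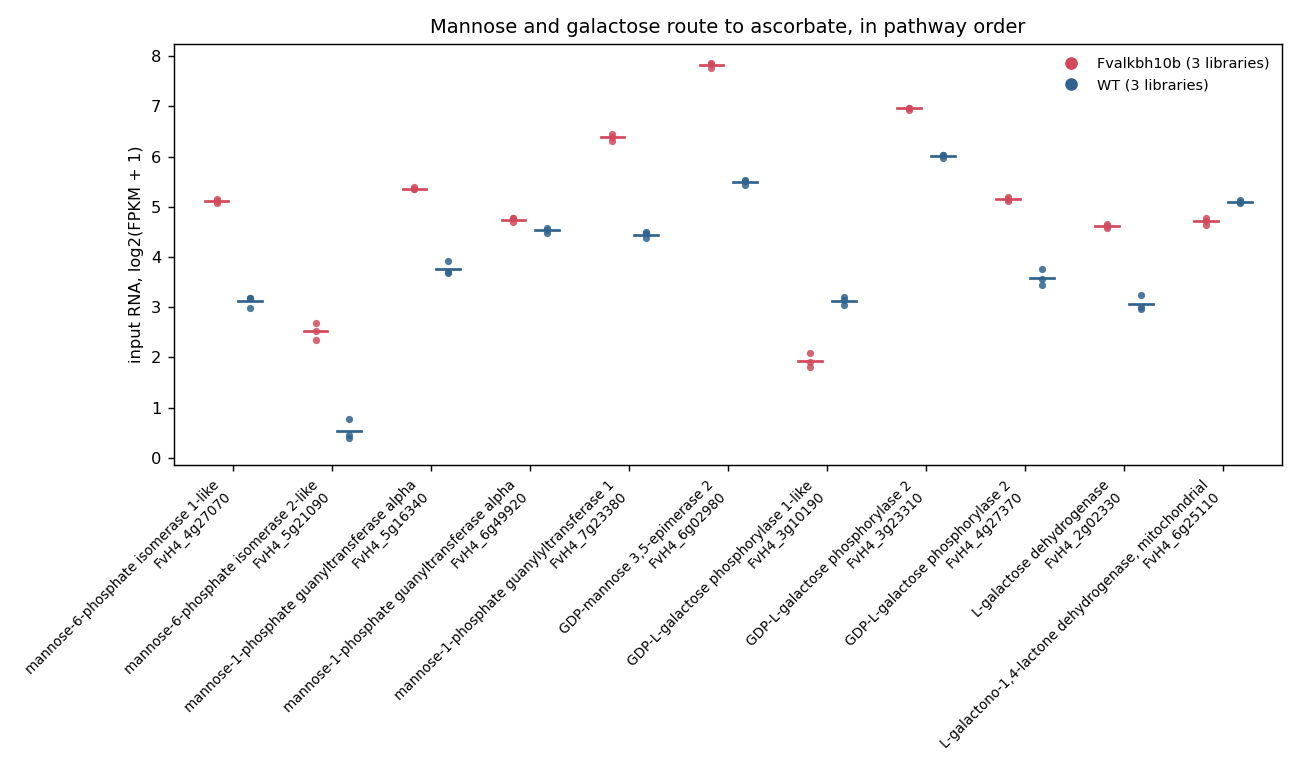
Input RNA of the 11 tested genes of the mannose and galactose route in pathway order (y axis, log2(FPKM + 1)), with 3 Fvalkbh10b libraries left of 3 WT libraries for each gene and a bar at each mean. Fvalkbh10b lies above WT for 9 genes and below it for phosphorylase 1-like and for the mitochondrial dehydrogenase of the last step.

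Markers of tissue and ripening moved in these libraries too. The counts below stand beside 48.3% of all tested genes called higher in Fvalkbh10b and 19.1% called lower. Of 37 genes described as chlorophyll-binding or photosystem proteins 30 were tested and all 30 were higher in Fvalkbh10b. Their summed level was 2818 to 3013 FPKM in Fvalkbh10b and 288 to 304 FPKM in WT, with 1 gene at 0 in all Fvalkbh10b libraries and 5 at 0 in all WT libraries. Of 49 genes described as expansins, pectate lyases or anthocyanidin 3-O-glucosyltransferases, which act in softening and colour of the receptacle, 27 were tested, 7 were higher and 15 lower. They summed to 1529 to 1575 FPKM in Fvalkbh10b and 7361 to 7733 FPKM in WT, with 4 genes at 0 in all Fvalkbh10b libraries and 9 in all WT libraries. Of 30 genes described as seed storage, oleosin or late embryogenesis proteins 18 were tested, 4 were higher and 11 lower, with sums of 359.8 to 375 FPKM in Fvalkbh10b and 634 to 649.6 FPKM in WT and with 2 genes at 0 in all Fvalkbh10b libraries and 1 in all WT libraries. The part of these differences in the changes of the ascorbate genes was not tested, and in whole fruit a smaller share of a cell type and less RNA per cell cannot be told apart.

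The side routes were represented by 8 genes, of which 3 were tested. D-galacturonate reductase, an enzyme known from strawberry fruit that feeds a breakdown sugar of pectin into ascorbate, had a gene (FvH4_4g35841, chromosome 4, 33011484 to 33013810, plus strand) with 2.61, 3.78 and 3.90 FPKM in Fvalkbh10b against 11.01, 10.1 and 11.02 FPKM in WT. It fell by 1.42 on the log2 scale (SE 0.13, limma adjusted p = 6.51e-06), with no overlap between genotypes. Inositol oxygenase opens myo-inositol to glucuronate. Inositol oxygenase 4 (FvH4_1g06630, chromosome 1, 3490954 to 3493389, minus strand) had 11.9, 13.3 and 13.0 FPKM in Fvalkbh10b, while the WT libraries were listed at 0, 0.05 and 0 FPKM, and its log2 change was 3.76 ± 0.12 (adjusted p = 1.88e-09). It passed the filter only through its level in Fvalkbh10b, and no ratio is given because the WT level is near 0. Inositol oxygenase 1-like (FvH4_4g36370) had 11.9, 12.1 and 9.88 FPKM in Fvalkbh10b against 15.3, 17.5 and 18.5 FPKM in WT and fell by 0.56 (SE 0.10, adjusted p = 6.72e-04). The 2 genes described as L-gulonolactone oxidase, which in animals carries out the last step of ascorbate synthesis, and the other 3 inositol oxygenases did not exceed 0.79 FPKM.

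Ascorbate peroxidases reduce hydrogen peroxide with ascorbate as the electron donor. Of 5 genes 4 were tested and 3 were called higher, beside 48.3% of all tested genes, none of the 3 by 2-fold. With libraries rescaled to one median 1 was higher and 1 lower. The cytosolic peroxidase (FvH4_3g33910, chromosome 3, 29338002 to 29340788, minus strand) was the most abundant of all 50 genes, with 481, 472 and 481 FPKM in Fvalkbh10b against 427, 401 and 385 FPKM in WT. Its change of 0.24 ± 0.04 (limma adjusted p = 5.53e-04) equalled the median of all genes to within 0.01 and was -0.041 with libraries rescaled to one median (adjusted p = 0.476). Peroxidase 2, cytosolic-like (FvH4_6g15200), had 10.1, 11.8 and 10.1 FPKM in Fvalkbh10b against 6, 5.64 and 8.06 FPKM in WT (log2 change 0.64 ± 0.13, adjusted p = 0.00149). The peroxisomal peroxidase 3 (FvH4_1g11491) had 3.71, 4.26 and 6.84 FPKM in Fvalkbh10b against 2.96, 2.80 and 2.41 FPKM in WT, a change of 0.64 ± 0.18 (adjusted p = 0.0111). Another gene on the same strand overlaps it along 1862 bases, so the share of reads given to each is uncertain, and the call was lost with rescaled libraries (0.42, adjusted p = 0.0623). Peroxidase 6 (FvH4_2g27340), described as chloroplastic, had 41.7, 40.3 and 40.4 FPKM in Fvalkbh10b against 40.3, 39.8 and 36.9 FPKM in WT. Its libraries overlapped and its change of 0.064 had a 95% interval of -0.055 to 0.18 (adjusted p = 0.306). With libraries rescaled to one median it was called lower, at -0.21 (adjusted p = 0.00778).

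The genes described as ascorbate oxidases or their homologs held wide changes in both directions. Ascorbate oxidases are copper enzymes of the cell wall space that oxidise ascorbate with oxygen. The word homolog in 7 of the 10 descriptions leaves the enzyme activity of those proteins unstated. Of the 10 genes 6 were tested, and 4 were higher and 2 lower, every one by 2-fold or more. At that threshold 14% of all tested genes were higher and 6.49% lower. FvH4_2g37780 (chromosome 2, 27427351 to 27432183, plus strand) had 56.2, 53.7 and 52.2 FPKM in Fvalkbh10b against 3.08, 3.68 and 2.83 FPKM in WT, a log2 rise of 3.72 ± 0.09 (limma adjusted p = 2.82e-10). The oxidase-like gene FvH4_5g29070 (chromosome 5, 20173849 to 20178953, minus strand) had 64.4, 61.5 and 57.3 FPKM in Fvalkbh10b against 12.6, 12.5 and 11.1 FPKM in WT, a rise of 2.25 ± 0.07 (adjusted p = 1.97e-09). These were the most abundant oxidase genes of the mutant fruit.

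FvH4_2g16000 (chromosome 2, 13973659 to 13977994, minus strand) showed the reverse. It was listed at 0.12, 0 and 0.17 FPKM in Fvalkbh10b against 18.5, 15.5 and 15.8 FPKM in WT, and its log2 change of -4.00 ± 0.12 (limma adjusted p = 2.07e-09) was the largest fall among the members. It was the most abundant oxidase gene of WT fruit, was near 0 in mutant fruit, and passed the filter only through WT. FvH4_6g42990 had 3.57, 3.55 and 3.10 FPKM in Fvalkbh10b against 8.25, 8.97 and 8.91 FPKM in WT and fell by 1.14 (SE 0.10, adjusted p = 4.7e-06). In the other direction FvH4_1g14990 had 8.65, 9.05 and 10.01 FPKM in Fvalkbh10b against 2.12, 2.25 and 2.01 FPKM in WT (1.71 ± 0.11, adjusted p = 3.45e-07), and FvH4_3g01840 had 4.11, 4.37 and 2.98 FPKM in Fvalkbh10b against 0.60, 0.65 and 0.51 FPKM in WT (1.59 ± 0.15, adjusted p = 8.26e-06). FvH4_3g01840 passed the filter only through Fvalkbh10b. Members of this family thus differed between the genotypes in both directions. Summed over the 10 genes, the level was 140.5, 134 and 128 FPKM in Fvalkbh10b and 46.6, 44.95 and 42.7 FPKM in WT. The 4 untested genes, FvH4_6g20700, FvH4_6g20720, FvH4_3g14660 and FvH4_1g21540, stayed at or below 1.52 FPKM.

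**Figure D3:**
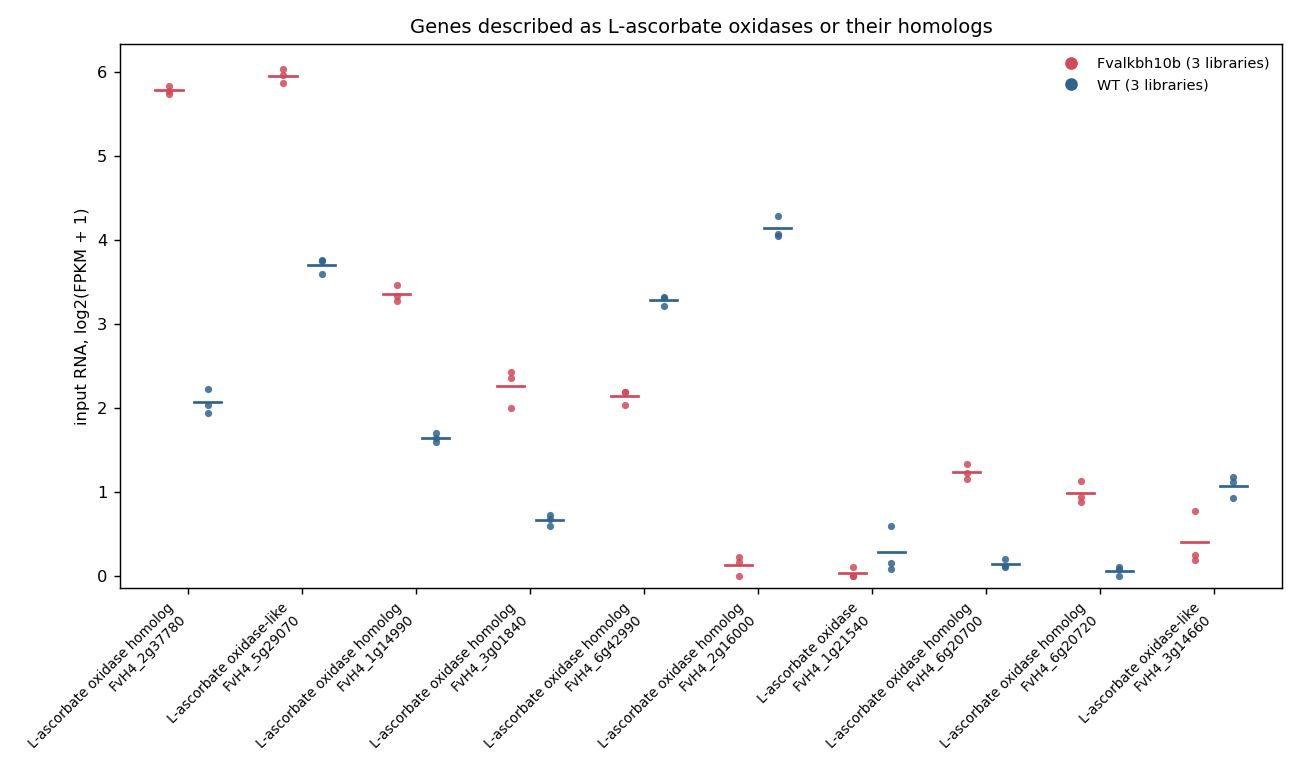
Input RNA of the 10 genes described as ascorbate oxidases or homologs (y axis, log2(FPKM + 1)), with 3 Fvalkbh10b libraries left of 3 WT libraries for each gene and a bar at each mean. The 6 tested genes come first, 4 with Fvalkbh10b above WT and 2 with Fvalkbh10b below WT, followed by the 4 that did not pass the filter.

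Regeneration genes went both ways. Of the 6 members, which are monodehydroascorbate and glutathione reductases, 5 were tested, and 4 were called lower in Fvalkbh10b and 1 higher. Over all tested genes 19.1% were lower and 48.3% higher. The dehydroascorbate reductase genes lie outside the word rule, and both that were tested were higher, which makes 4 lower and 3 higher of 7. Monodehydroascorbate reductase returns the ascorbate radical to ascorbate with NADH or NADPH. The cytoplasmic isoform 2 (FvH4_6g50920, chromosome 6, 37816494 to 37821860, minus strand) had 8.94, 9.01 and 9.12 FPKM in Fvalkbh10b against 20.8, 22.4 and 20.7 FPKM in WT and fell by 1.15 on the log2 scale (SE 0.07, limma adjusted p = 2.83e-07). The far more abundant seedling isozyme (FvH4_6g18190, chromosome 6, 12007071 to 12011007, plus strand) had 111, 113 and 111 FPKM in Fvalkbh10b against 131, 146 and 143 FPKM in WT and fell by 0.32 (SE 0.05, adjusted p = 1.9e-04). The chloroplastic reductase (FvH4_5g03130) had 17.3, 17.3 and 19.0 FPKM in Fvalkbh10b against 23.3, 22.8 and 22.7 FPKM in WT and fell by 0.34 (SE 0.06, adjusted p = 9.47e-04). In none of these 3 genes did the genotypes overlap.

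Glutathione reductase keeps glutathione reduced with NADPH. The cytosolic enzyme's gene (FvH4_4g00450, chromosome 4, 427898 to 437210, plus strand) had 48.6, 48.3 and 47.0 FPKM in Fvalkbh10b against 59.1, 58.5 and 57.3 FPKM in WT and fell by 0.28 (SE 0.04, limma adjusted p = 3.46e-04). The chloroplastic one (FvH4_2g22490) had 17.9, 15.7 and 18.7 FPKM in Fvalkbh10b against 14.8, 13.6 and 12.2 FPKM in WT and rose by 0.35 ± 0.09 (adjusted p = 0.00763). That call was lost with libraries rescaled to one median (0.081, adjusted p = 0.472). Summed over the 6 members, RNA was 204 to 205 FPKM in the Fvalkbh10b libraries and 249.6 to 263 FPKM in the WT libraries.

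Dehydroascorbate reductases reduce dehydroascorbate with glutathione. Their descriptions read glutathione S-transferase DHAR, so the words did not match them, and they were looked up after other values had been seen. FvH4_7g19940 (DHAR2-like) had 117, 125 and 114 FPKM in Fvalkbh10b against 42.9, 36.5 and 40.6 FPKM in WT, and rose by 1.55 ± 0.06 (limma adjusted p = 1.63e-08). FvH4_1g28700 (DHAR3, chloroplastic) had 15.9, 15.1 and 14.9 FPKM in Fvalkbh10b against 3.43, 3.50 and 4.21 FPKM in WT, and rose by 1.79 ± 0.10 (adjusted p = 1.24e-07). Neither overlapped between genotypes. The other gene so described, FvH4_7g21040, did not exceed 0.04 FPKM. With these 3 genes added, summed regeneration RNA was 337, 344 and 334 FPKM in the Fvalkbh10b libraries and 296, 303 and 301 FPKM in the WT libraries. On the FPKM scale the direction of the sum thus depends on whether they are counted. The sums were not rescaled to one median, so the shift of the whole table, a median log2 change of 0.25, is still in them.

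The other 9 members draw on GDP-mannose or use ascorbate in membranes. Of these 6 were called higher and 3 were not called. The share called, 66.7%, lay near the 67.5% of all tested genes called in either direction, of which 48.3% were higher. With libraries rescaled to one median 3 were higher and 1 lower, and 5 of the 9 turned sign. Transmembrane ascorbate ferrireductases are cytochrome b561 proteins that pass electrons from ascorbate across membranes. Ferrireductase 1 (FvH4_7g29440, chromosome 7, 21656349 to 21658578, minus strand) had 158, 159 and 155 FPKM in Fvalkbh10b against 100.4, 99.97 and 105 FPKM in WT, a rise of 0.62 ± 0.04 (limma adjusted p = 3.58e-07). Ferrireductase 4 (FvH4_4g28220) had 3.33, 3.22 and 3.60 FPKM in Fvalkbh10b against 0.69, 0.74 and 0.82 FPKM in WT, a rise of 1.32 ± 0.12 (adjusted p = 7.8e-06). It was the one gene of these 9 past 2-fold and passed the filter only through Fvalkbh10b. Ferrireductase 2 (FvH4_6g45440) had 26.2, 25.0 and 25.3 FPKM in Fvalkbh10b against 22.2, 22.2 and 22.0 FPKM in WT (0.19 ± 0.05, adjusted p = 0.0105), and was at -0.078 with libraries rescaled to one median. Ferrireductase 3 (FvH4_4g33080), with 2.98, 1.91 and 1.96 FPKM in Fvalkbh10b against 0.39, 1.68 and 1.02 FPKM in WT (0.73 ± 0.24, adjusted p = 0.0203), lost its call without Fvalkbh10b replicate 1 (adjusted p = 0.0786) and without WT replicate 1 (adjusted p = 0.0638).

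GDP-mannose 4,6 dehydratase (FvH4_1g12010, chromosome 1, 6560468 to 6562666, plus strand), which diverts GDP-mannose towards GDP-fucose, had 17.5, 19.0 and 19.8 FPKM in Fvalkbh10b against 12.4, 11.98 and 10.6 FPKM in WT and rose by 0.64 ± 0.08 (limma adjusted p = 7.26e-05). A gene on the opposite strand, FvH4_1g12000, with means of 7.96 FPKM in Fvalkbh10b and 5.29 FPKM in WT, overlaps it by 420 bases. Of the 4 GONST genes, described as GDP-mannose transporters, FvH4_2g20640 had 41.7, 42.2 and 36.1 FPKM in Fvalkbh10b against 32.2, 33.0 and 33.4 FPKM in WT (0.27 ± 0.07, adjusted p = 0.00472). Its change was -0.0029 with libraries rescaled to one median. The other 3, at 5.74 to 15.3 FPKM, overlapped between genotypes and had log2 changes of 0.056, 0.15 and 0.0039. The last of these, FvH4_6g29120, was called lower with libraries rescaled to one median (-0.26, adjusted p = 0.0198).

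Genes that supply or back up the pathway were taken from 3 further word lists. For comparison, 48.3% of all tested genes were called higher and 19.1% lower, with a median log2 change of 0.25. With libraries rescaled to one median these shares were 30.8% and 32.2%. Of 15 genes of sugar-nucleotide and inositol supply 14 were tested, 5 were higher and 6 lower, with a median log2 change of -0.14, and the split was 3 higher and 9 lower with libraries rescaled to one median. The word UDP-glucuronate also matched genes described as xylan alpha-glucuronosyltransferases, which are not supply enzymes. Of these FvH4_2g34480 was called higher, FvH4_2g14610 was not called and FvH4_1g24050 was not tested. Inositol monophosphatase 3 (FvH4_3g00781), of a family that frees myo-inositol and in Arabidopsis also hydrolyses L-galactose 1-phosphate, had 76.7, 81.8 and 88.6 FPKM in Fvalkbh10b against 18.2, 15.9 and 16.1 FPKM in WT (2.23 ± 0.07, limma adjusted p = 2.55e-09). Inositol-3-phosphate synthase (FvH4_1g21450), which makes the inositol backbone from glucose 6-phosphate, had 74.8, 69.3 and 68.1 FPKM in Fvalkbh10b against 195, 187 and 189 FPKM in WT (-1.42 ± 0.05, adjusted p = 2.77e-09). Both glucose-6-phosphate isomerase genes (FvH4_5g35680 and FvH4_2g39910), which interconvert glucose and fructose 6-phosphate, were called lower, at -0.72 and -0.66.

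Of 7 genes of glutathione synthesis and use 6 were tested, 4 were higher and 1 lower, with a median of 0.57. Over all tested genes 48.3% were higher and 19.1% lower, with a median of 0.25. Glutamate-cysteine ligase (FvH4_5g02350), the first enzyme of glutathione synthesis, had 81.0, 82.5 and 81.4 FPKM in Fvalkbh10b against 42.7, 39.8 and 42.2 FPKM in WT (0.96 ± 0.05, limma adjusted p = 5.35e-08). Of 15 genes of superoxide and peroxide removal 14 were tested, 7 were higher and 3 lower, with a median of 0.15. These counts lay near the shares of all tested genes. The lower genes include FvH4_5g01090, a copper chaperone for superoxide dismutase, which the words also matched. The split was 4 higher and 6 lower with libraries rescaled to one median. Peroxiredoxin Q (FvH4_1g09250), a chloroplast thiol peroxidase, had 22.6, 17.9 and 22.3 FPKM in Fvalkbh10b against 1.96, 3.15 and 3.85 FPKM in WT (2.48 ± 0.17, adjusted p = 8.19e-07).

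The authors' m6A peaks come as 1 list for each genotype with no value per library, so the lists were compared without a test. Peak heights are the authors' log2 of precipitated over input signal. In Fvalkbh10b 46 peaks fell in 30 of the 50 ascorbate genes, beside 66.2% of all genes, and in WT 49 peaks fell in 30, beside 63.1%. In both lists 28 genes had a peak, 2 had one in Fvalkbh10b only, 2 in WT only, and 18 in neither. Of the 18, 8 had not passed the filter on low RNA. Of the 38 tested members 28 had a peak in either list, which is 73.7%, beside 87.2% of all tested genes. Among the 10 tested members without one were guanyltransferase alpha FvH4_5g16340, inositol oxygenase 4 (FvH4_1g06630) and the oxidase gene FvH4_2g16000.

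Most member peaks lay in 3′ UTRs, as in the lists as a whole. In Fvalkbh10b 31 of 46 were annotated to a 3′ UTR, 7 to coding exons and 8 to a 5′ UTR. In WT the counts were 29, 13 and 7 of 49. Over whole lists the 3′ UTR share was 54.7% in Fvalkbh10b and 54.5% in WT. Overlap of at least 1 base on the same gene and strand joined 38 of the 46 Fvalkbh10b peaks and 36 of the 49 WT peaks. The 10 oxidase genes held 10 peaks in Fvalkbh10b, 3 of them in coding exons, and 15 peaks in WT, 10 of them in coding exons. Over whole lists the coding-exon share was 30.1% in Fvalkbh10b and 29.9% in WT. The WT exon peaks include those of FvH4_3g14660 and FvH4_1g21540, which did not pass the filter and stayed at or below 1.25 and 0.51 FPKM. Median height of member peaks was 2.22 in Fvalkbh10b and 1.83 in WT, beside 2.39 and 2.28 for the whole lists. Within a place the medians in Fvalkbh10b and WT lay closer, at 2.87 and 2.72 in 3′ UTRs and 1.34 and 1.25 in coding exons. In 5′ UTRs they were 1.425 and 1.26.

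**Figure D4:**
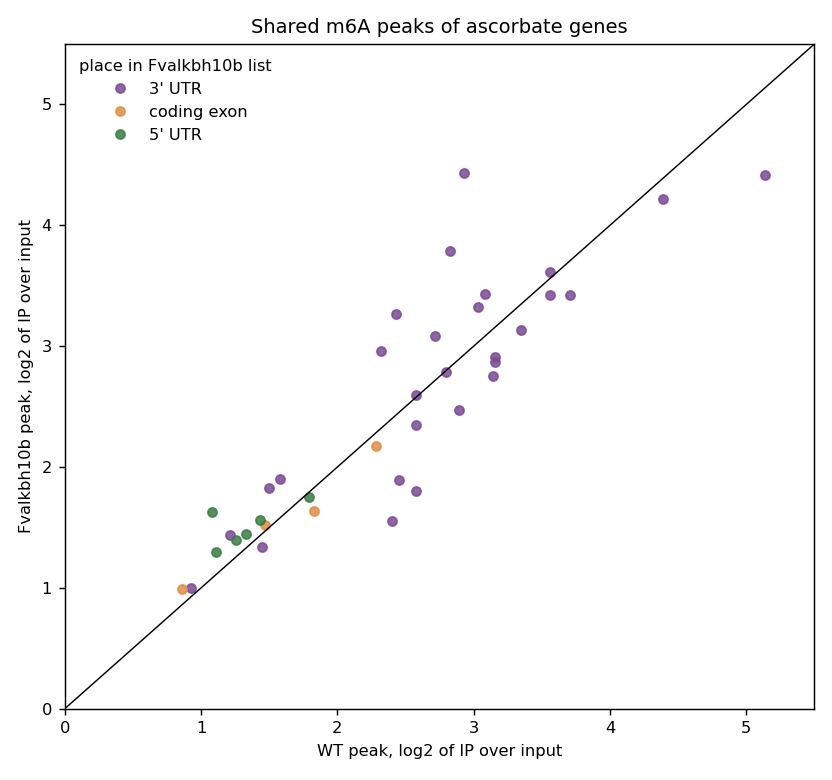
Height of the 38 Fvalkbh10b peaks of ascorbate genes that overlap a WT peak (y axis, the authors' log2 of precipitated over input) against the height of that WT peak (x axis), coloured by the place of the Fvalkbh10b peak. The line marks equal height, 3′ UTR peaks reach 4.43 in Fvalkbh10b, and none of the 5′ UTR peaks exceeds 1.75 in Fvalkbh10b or 1.79 in WT.

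The GDP-mannose 3,5-epimerase gene (FvH4_6g02980) was one of the 2 with a peak in WT only. That peak lay in the 3′ UTR (chromosome 6, 1664745 to 1664969) with a height of 1.70. The authors' deposited table of differential peaks lists none in this gene, so no change of m6A was called for it. L-galactose dehydrogenase (FvH4_2g02330) had a tall 3′ UTR peak in both genotypes, at 3.42 in Fvalkbh10b and 3.56 in WT. The gene also had a peak in a coding exon (chromosome 2, 1919074 to 1919273), with a height of 1.34, in Fvalkbh10b only. Guanylyltransferase 1 (FvH4_7g23380) had a single 5′ UTR peak, at 1.30 in Fvalkbh10b and 1.11 in WT. The inositol oxygenase gene FvH4_5g01690, with a peak in Fvalkbh10b only, had at most 0.42 FPKM and overlaps a gene of the opposite strand, FvH4_5g01680, along 1796 bases. Reads of the pair cannot be told apart if counting ignored strand.

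The authors' deposited table of differential peaks lists 21 peaks in 18 of the ascorbate genes. At the authors' adjusted p under 0.05, which the table rounds to 2 decimals, 5 peaks in 5 genes were higher in Fvalkbh10b and 10 peaks in 9 genes were lower. Of the 32 members with a peak in either list 5 had a higher differential peak, which is 15.6% beside 24.2% of all genes with a peak, and 8 had a lower one, which is 25.0% beside 11.4%. The ninth gene with a lower peak, the putative monodehydroascorbate reductase FvH4_3g20880, has no peak in either genotype's list. Its differential peak, in a coding exon, stood at -2.68 in the authors' deposited table, and its RNA was at or below 0.85 FPKM.

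In the mannose and galactose route the called m6A changes were mostly downward. In the authors' deposited table phosphorylase 2 FvH4_3g23310 had a lower 3′ UTR peak (chromosome 3, 16388045 to 16388669, log2 change -0.80) and a lower 5′ UTR peak (16385448 to 16385747, -0.65). For the 5′ UTR the peak lists differ from that direction, with a height of 1.63 in Fvalkbh10b for a peak of 200 bases and 1.08 in WT for a peak of 425 bases. In the same authors' deposited table the second phosphorylase 2, FvH4_4g27370, was at -0.55 for its 3′ UTR peak (chromosome 4, 28396835 to 28397384). Mannose-6-phosphate isomerase 1-like (FvH4_4g27070) was at -0.98 for its 3′ UTR peak (chromosome 4, 28218170 to 28218369), which had heights of 1.55 in Fvalkbh10b and 2.40 in WT. The coding-exon peak of L-galactose dehydrogenase (FvH4_2g02330) was the exception in the authors' deposited table, at 1.07 (authors' adjusted p = 0.04).

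In the regeneration group the authors' deposited table gives higher 3′ UTR peaks for cytoplasmic monodehydroascorbate reductase (FvH4_6g50920; chromosome 6, 37817294 to 37817968; log2 change 1) and for the seedling isozyme (FvH4_6g18190; chromosome 6, 12010072 to 12010946; 0.38). The cytoplasmic one had heights of 2.96 in Fvalkbh10b and 2.32 in WT, and the seedling isozyme 3.08 in Fvalkbh10b and 2.72 in WT. The 3′ UTR peak of cytosolic glutathione reductase (FvH4_4g00450) was among the tallest of all members, with heights of 4.22 in Fvalkbh10b and 4.39 in WT, and was at -0.19 in the authors' deposited table. Of the oxidase genes, the authors' deposited table has FvH4_6g42990 at 0.83 and FvH4_5g29070 at 0.36 (authors' adjusted p = 0.03) for 3′ UTR peaks, and FvH4_3g14660 at -3.93 for a coding-exon peak in a gene at or below 1.25 FPKM. FvH4_3g14660 also overlaps an opposite-strand gene along 1262 bases. Lower peaks in the other genes were at -0.73 for GDP-mannose 4,6 dehydratase (FvH4_1g12010), -0.42 for ferrireductase 2 (FvH4_6g45440) and -0.17 for ferrireductase 1 (FvH4_7g29440), again from the authors' deposited table.

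Set beside the RNA changes, 13 called differential peaks lay in tested members. In 7 of them, from 6 genes, m6A was lower and RNA higher in Fvalkbh10b, and in 3, from 3 genes, m6A was higher and RNA lower. The directions were opposite in 10 of 13 peaks (76.9%), beside 59.8% of 4095 such peaks over all genes. Among the 6 genes, ferrireductase 2 (FvH4_6g45440) turned the sign of its RNA change with libraries rescaled to one median, so the member count depends on the scaling. The directions were the same in L-galactose dehydrogenase and the oxidase gene FvH4_5g29070, both higher, and in cytosolic glutathione reductase, lower on both measures. The input libraries that give the RNA change are also the ones m6A enrichment is taken against, so the 2 measures share data and their relation is a description only.

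**Figure D5:**
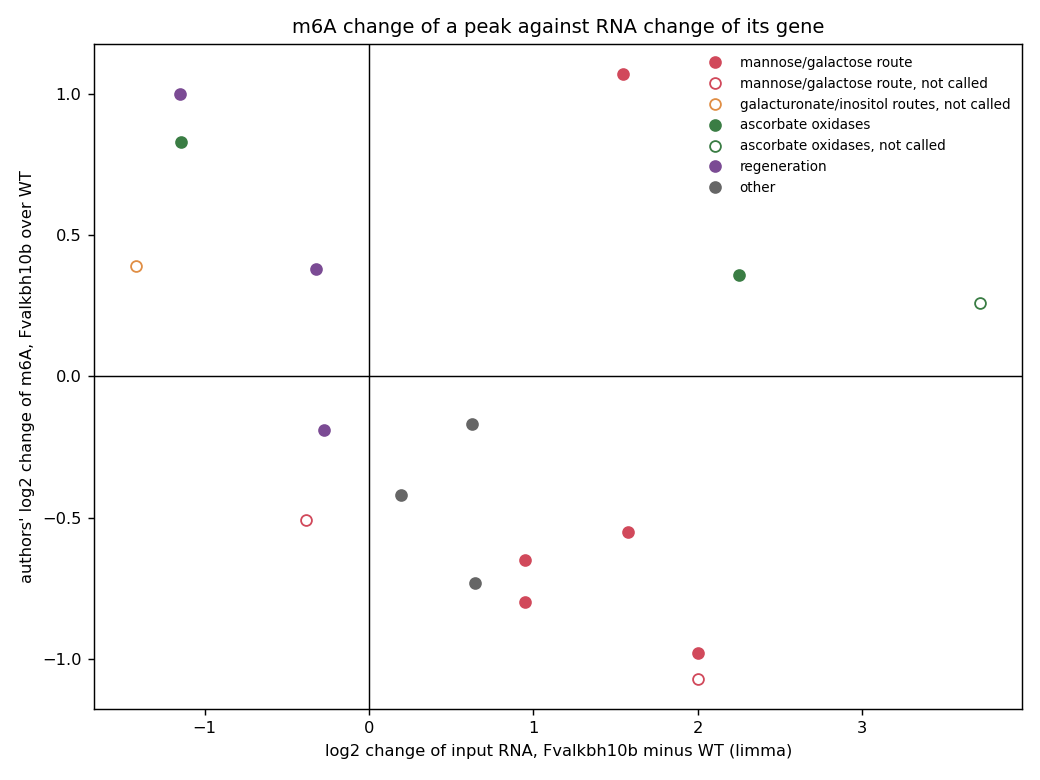
The authors' log2 change of m6A of each differential peak (y axis, Fvalkbh10b over WT) against the log2 change of input RNA of its gene (x axis, limma), for tested ascorbate genes. Filled points were called in the authors' table and open points were not, and of the 13 filled points 7 lie at lower m6A with higher RNA and 3 at higher m6A with lower RNA.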

How the data were processed

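Fruit mRNA of Fvalkbh10b and WT was sequenced as input and as anti-m6A precipitate. The authors deposited FPKM for each gene and input library. StringTie, HISAT2 and FastQC stand in the submitters' processing notes, with neither versions nor roles. The peak lists hold log2 of precipitated over input signal and p-values deposited by the authors, and the differential peak table holds their log2 changes and adjusted p-values, rounded to 2 decimals. The sources used here do not give the peak caller, genome build or annotation. Starts in the peak files count from 0 and were raised by 1.

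The FPKM values show no steps of whole reads, so depth is unknown and no count model or counting interval was used. limma 3.58.1 (R 4.3.3) was fitted to log2(FPKM + 1) of 6 input libraries with genotype as the only term and a mean-variance trend, over the 15571 genes averaging 1 FPKM or more, with Benjamini-Hochberg adjustment over all of them; the procedure was tested on simulated data. For single values an exact two-sided permutation test of 3 against 3 cannot go below 0.1, so it was not used for calls. P-values set the difference between genotypes against the spread among the 3 replicates within each genotype, as pooled and moderated by limma over all tested genes.

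The members and lists were chosen with earlier results of these data known. In each role group the text names the 4 called members with the largest absolute log2 change and a mean of at least 5 FPKM in a genotype, the most abundant member and every member with a called differential peak; other members are given by counts and ranges, or named for completeness of a family. Alternatives were other pseudocounts, filters, scalings, a replicate block, leaving out each library, stricter peak thresholds and a Gene Ontology list. No sequence is printed, since none of the files' build was used here.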

Additional observations from a re-analysis of the deposited data

How the results depend on the processing

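Counts of ascorbate genes called higher and lower were 24 and 10, and were 23 to 24 and 10 to 10 without any one replicate. The replicate numbers did not pair the samples (same-number correlations of 0.04, -0.03 and 0.03), and a fit with the replicate block gave 24 higher and 10 lower. With at least 2-fold in addition the counts were 13 and 5. Among genes annotated with L-ascorbic acid biosynthesis, a list added after seeing the data, 6 were higher and 2 lower of 9 tested. Over all tested genes 48.3% were higher and 19.1% lower. Of the 15 genes so annotated 12 are members, so that list is not independent of them. Its higher genes include FvH4_5g01680, described as protein IQ-DOMAIN 14, which overlaps the inositol oxygenase gene FvH4_5g01690 along 1796 bases. With libraries rescaled to one median, the supply list had 3 higher and 9 lower (8 lower with quantile normalization), and the superoxide and peroxide list 4 higher and 6 lower (5 lower with quantile normalization). Without any one replicate the supply list had 4 to 5 higher and 6 to 6 lower, the glutathione list 4 to 4 higher and 1 to 1 lower, and the superoxide and peroxide list 6 to 7 higher and 2 to 3 lower. Genes with a higher differential peak numbered 3 at the authors' adjusted p under 0.01 and 3 at a log2 change of at least 0.5. Lower peaks were lost too. FvH4_3g14660 and FvH4_4g00450, both at a rounded 0.01, missed the first threshold. FvH4_4g00450 (-0.19), FvH4_6g45440 (-0.42) and FvH4_7g29440 (-0.17) missed the second. Signs turned with rescaled libraries for FvH4_6g49920 (-0.060), FvH4_3g33910 (-0.041), FvH4_2g27340 (-0.21, called), FvH4_1g24340 (-0.19), FvH4_5g25930 (-0.10), FvH4_2g20640 (-0.0029), FvH4_6g29120 (-0.26, adjusted p = 0.0198), FvH4_6g45440 (-0.078) and FvH4_7g13630 (-0.17), and with quantile normalization for FvH4_2g27340 (-0.052), FvH4_1g24340 (-0.22), FvH4_5g25930 (-0.13), FvH4_6g29120 (-0.20) and FvH4_7g13630 (-0.019). These scalings remove the 0.25 shift of all genes. Without any one replicate FvH4_1g24340 ranged over -0.014 to 0.10, below 0 without Fvalkbh10b replicate 2, and FvH4_6g29120 over -0.052 to 0.066, below 0 without Fvalkbh10b replicate 2 (-0.012) and WT replicates 2 (-0.0020) and 3. Phosphomannomutase was called without Fvalkbh10b replicate 1 (0.23, adjusted p = 0.0258), and the cause was not tested. Unknown depth limits the genes near 0, and peaks have no replicate values.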
